A study of Homo sapiens with 24 samples.

Results

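The amino acid response and tRNA synthetase genes are 41 genes picked by symbol: 18 cytosolic aminoacyl-tRNA synthetases, the tRNA exporter XPOT, 9 amino acid and one-carbon enzymes, 5 amino acid transporters and 8 regulators or effectors around the transcription factor ATF4. They were followed in RNA-seq from Nalm6 cells, an established B-cell acute lymphoblastic leukemia line. Cells expressed a shRNA against G9a (shG9a), GLP (shGLP) or HP1γ (shHP1γ), or a non-specific sequence (shNS), and each of these 4 lines received 100 nM of the synthetic glucocorticoid dexamethasone (dex) or the same volume of vehicle ethanol for 8 h. The 8 conditions had 3 biological replicates each, performed on different days, which makes 24 libraries; libraries with the same replicate number are called pairs here. G9a and GLP are histone methyltransferases and HP1γ is a chromatin protein; the study asked whether genes that need G9a and GLP as coactivators of the glucocorticoid receptor also need HP1γ. All lines carried a shRNA, so cells without one were not compared here.

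Cells that run short of an amino acid accumulate uncharged tRNA, which activates the kinase GCN2 (gene EIF2AK4). GCN2 phosphorylates the translation factor eIF2, general translation slows, and the mRNA of ATF4 is translated more. ATF4 then raises genes for amino acid import, amino acid synthesis and tRNA charging, and pairs with C/EBP proteins on DNA at a composite element with the core TGATGNAA. The same branch can be started by other eIF2 kinases, such as the endoplasmic reticulum (ER) kinase PERK (gene EIF2AK3).

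The promoter windows of the members were searched for this core. Windows from 250 bases before to 50 bases after each annotated start (RefSeq, GRCh38.p14) were available for 33 of the 41 members, and TGATGNAA was found on either strand in at least 1 window of 13 of them (39.4%), against 1217 of 27305 genes (4.46%). A member with several starts had several windows, and 1 match sufficed, in members and in all genes alike. Matches of 8 members are shown because 7 of them belong to members that fell with dex and the other to ASNS, asparagine synthetase, the textbook target of the pathway. Each line holds 30 bases in the direction of transcription, and the capitals mark the core, which reads TGATG first or, on the opposite strand, ends in CATCA.
AARS: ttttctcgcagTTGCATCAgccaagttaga
IARS: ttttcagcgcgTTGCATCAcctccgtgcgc
MARS: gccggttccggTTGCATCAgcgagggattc
NARS: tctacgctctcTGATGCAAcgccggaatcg
CHAC1: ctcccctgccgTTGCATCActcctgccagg
SLC7A1: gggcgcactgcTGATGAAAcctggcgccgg
SLC1A5: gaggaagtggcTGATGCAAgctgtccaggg
ASNS: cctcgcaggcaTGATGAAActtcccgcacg
In AARS (chr16:70289675-70289704, minus strand) the core began 187 bases before the start, in CHAC1 (chr15:40953251-40953280, plus strand) 209 bases, in SLC1A5 (chr19:46784893-46784922, minus strand) 97 bases and in ASNS (chr7:97872458-97872487, minus strand) 68 bases before it. In IARS (chr9:92293692-92293721, minus strand) and MARS (chr12:57488053-57488082, plus strand) it began 13 and 4 bases before the start. In NARS (chr18:57621804-57621833, minus strand) and SLC7A1 (chr13:29595663-29595692, minus strand) it began 14 and 7 bases after it. CARS, GARS, TARS, ATF3 and SLC3A2 also held a match. The 8 tested members with a match were all among those that fell with dex in the average over the lines, and so were 12 of the 15 tested members whose windows held none. DARS, LARS, VARS, YARS, PSPH, SHMT2, SLC7A11 and ALDH1L2 had no window.

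Reads were counted per RefSeq transcript accession, and this decided which members could be followed. Of the 41 members, 27 had an accession above 1 CPM, the read count divided by the normalized library size, in 2 libraries or more. All 14 members with 1 accession in the table did so, each with a mean of at least 100 reads. Of the 26 members with several accessions 13 did so, 5 of them with such a mean. The same gradient ran through the whole table, where 24.7% of genes with 1 accession, 10.3% of those with 2 or 3 and 4.5% of those with 4 or more reached a mean of 100 reads. Reads shared by several accessions of a gene therefore appear not to have been counted, and a member at or near 0 cannot be read as unexpressed. This holds for ASNS, where all 7 accessions were at 0 in every library, and for CARS, HARS, LARS, WARS, SHMT2, CTH, CEBPB and ALDH1L2, which also held 0 reads. GARS, QARS, TARS and ATF3 reached at most 13, 4, 14 and 1 reads in a library. VARS is not analysed here.

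The libraries held 9289533 to 14387770 counted reads (median 11132064.5). The glucocorticoid targets FKBP5, TSC22D3 and PER1 rose with dex in each line. The EHMT1 transcript, which encodes GLP, was lower in shGLP than in shNS in 6 of 6 pairs (71.8% of shNS on average, 18 to 50 reads), and of the 2 CBX3 transcripts, which encode HP1γ, 1 was lower in shHP1γ in 6 of 6 pairs (68.1%, 18 to 82 reads) and the other in 4 of 6 (86.4%). G9a's gene EHMT2 is not analysed here. Of the 9 B-lineage markers CD79A, IGLL1 and MME passed the filter, and CD79B and CD22, which have several accessions, were at 0 reads. Markers of other blood cells summed to 20.6 to 34.1 CPM in the shGLP libraries and to 2.91 to 12.03 CPM in all others, 3 of the 9 being at 0 in every library; most of the difference was LYZ, lysozyme, with 25.8 ± 4.68 CPM in shGLP and 4.02 ± 1.48 CPM in shNS (ethanol, SD, n = 3).

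Libraries of 2 kinds stood apart in these genes. In shHP1γ the ethanol library of replicate 1 had the lowest value of its group for 25 of the 27 tested members, at a median of 73.0% of the other two libraries, against 96.4% over all tested accessions. The dex library of the same replicate was lowest for 20 of 27, at a median of 85.3%. The shG9a dex library of replicate 2 was lowest for 9 of the 13 members with a mean under 1000 reads, at a median of 67.8% of the others, and for 5 of the 14 with more, at 98.6%. Results that rest on these libraries are given with and without them, an alternative added after the data were seen.

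Dex lowered most of the measured members. Averaged over the 4 lines with equal weight, 22 of 25 members fell and none rose, leaving out DDIT3 and MTHFD2, which were above 1 CPM in fewer than 2 dex libraries (adjusted p of 0.05 or less, edgeR quasi-likelihood test with Benjamini-Hochberg adjustment over 10167 accessions, replicate as a block). Over all tested accessions 23.8% changed and 13.4% fell, and 24.5% and 14.3% of those above the filter in both treatments. With DDIT3 and MTHFD2 the count was 23 of 27. The median log2 fold change was −0.29 for the 25 members, −0.34 for the 27 and −0.01 for all accessions. ATF4, DARS, KARS and MTHFD2 were the 4 members that did not pass. In bulk RNA fewer expressing cells and less RNA per cell cannot be told apart. Of the 2 tested markers of other blood cells, myeloperoxidase (MPO, 2 to 40 reads) was also lower with dex (−1.22, edgeR adjusted p = 7.12e-04) and LYZ did not pass (−0.32); the summed 9 markers were at 4.42 to 7.82 CPM in shNS ethanol and 2.91 to 3.70 CPM in shNS dex. Their part in the result was not tested.

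**Figure D1:**
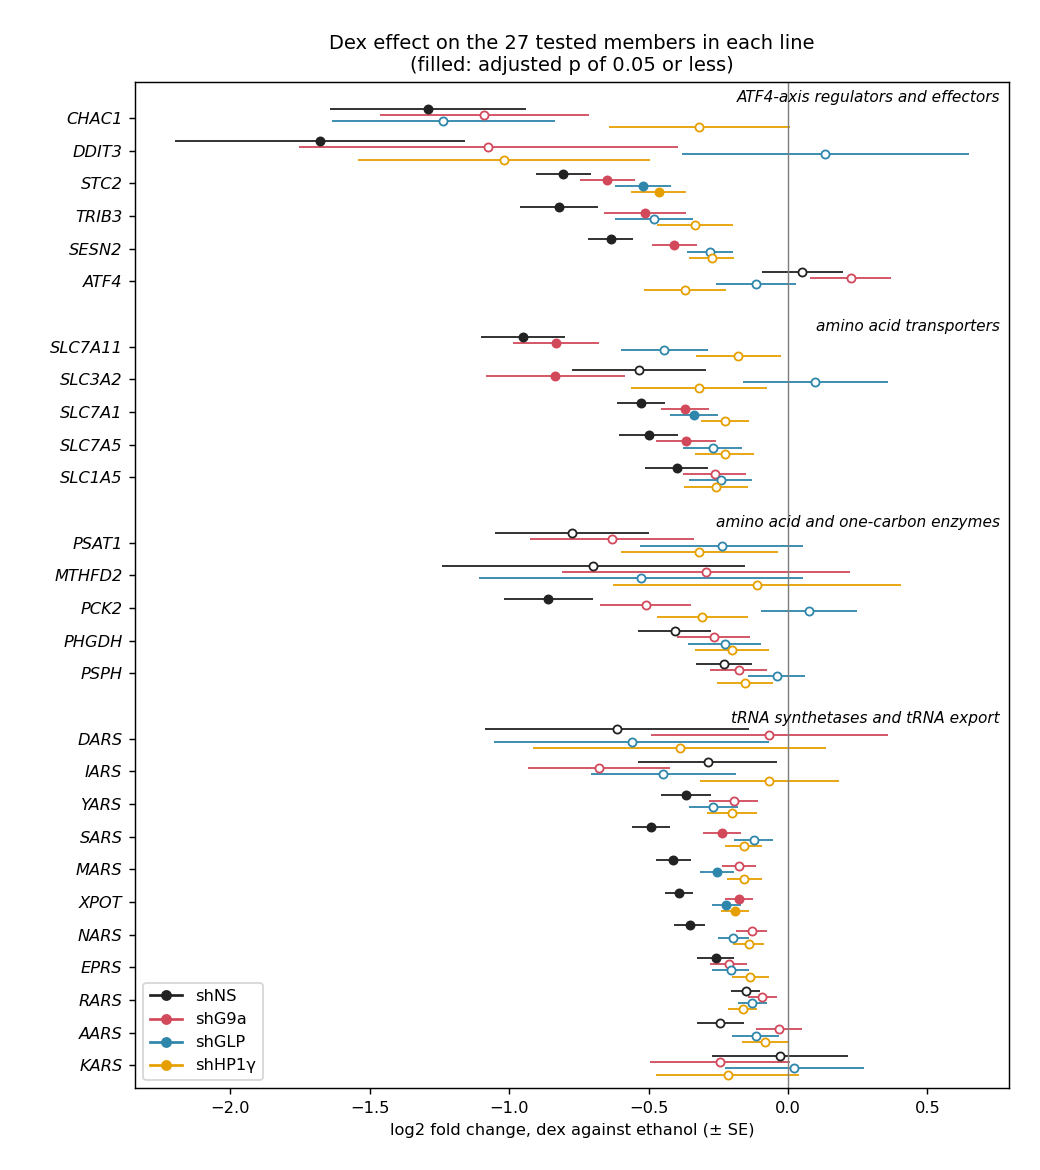
Log2 fold change of dex against ethanol with its standard error for the 27 tested members in each of the 4 lines, ordered by role; filled points passed an adjusted p of 0.05. Nearly all points lie left of 0, and in shNS the changes run from −1.68 (DDIT3) to 0.05 (ATF4).

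In shNS cells 15 of these 25 members fell and none rose (16 of 27 with DDIT3), where 9.95% of all accessions changed and 5.46% fell. Of the accessions above the filter in both treatments 10.2% changed and 5.83% fell in shNS. In shG9a, shGLP and shHP1γ 3.18%, 1.44% and 1.16% of these fell. In shG9a cells 9 fell (background 6.24%, of which 2.98% lower), in shGLP cells 4 (3.29%, 1.34% lower) and in shHP1γ cells 2 (3.22%, 1.09% lower). None rose in any line. Members with a negative log2 fold change numbered 26 of 27 in shNS, 26 in shG9a, 23 in shGLP and 27 in shHP1γ. Over all tested accessions 54.84%, 49.19%, 51.47% and 52.4% were negative. The members were read in the same libraries, so such counts of signs are not counts of independent values. Without the shHP1γ libraries of replicate 1 the counts were 20, 17, 14 and 10 of 27, all lower, and the shares of all accessions called were 14.2%, 10.3%, 6.87% and 3.5%. Without the shG9a dex library of replicate 2 the shG9a count was 4 (3.26% of all accessions) and the shGLP count 7 (4.71%). With only the 2 groups of each comparison in the fit the counts were 21 in shNS, 2 in shG9a, 13 in shGLP and 13 in shHP1γ, and the shares of all accessions 23.8%, 1.37%, 8.81% and 11.5%, so the order of the lines by count depended on the fit.

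Strongly counted genes are called more easily, so the members were also set against accessions of similar depth. Among accessions with a mean of 1000 or more reads 33.3% fell with dex in the average over the lines, and 14 of 14 members did. Between 100 and 1000 reads the shares were 16.1% and 4 of 5, and under 100 reads 3.81% and 4 of 6 (5 of 8 with DDIT3 and MTHFD2).

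**Figure D2:**
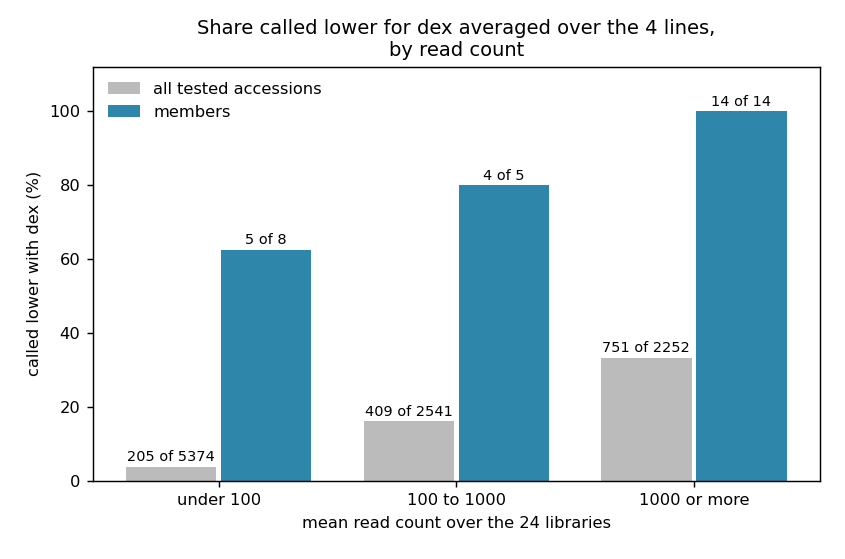
Share of accessions called lower for dex averaged over the 4 lines, for all tested accessions (grey) and for the members (blue), in 3 classes of mean read count; numbers above the bars give the counts, DDIT3 and MTHFD2 included. The members' bar is above the grey bar in each class.

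The regulators and effectors around ATF4 had the largest median change of the roles in the average. ATF4 itself, the transcription factor at the head of the branch, read 9.90, 9.58 and 7.82 CPM in the 3 shNS ethanol libraries and 10.2, 7.83 and 10.2 CPM in the dex libraries, so the groups overlapped. The log2 fold change was 0.05 in shNS and −0.05 in the average over the lines, and neither passed (edgeR adjusted p = 0.901 and 0.67). Dex libraries were above their same-numbered ethanol libraries in 3 of 3 pairs in shG9a and below them in 3 of 3 pairs in shHP1γ, and these changes (0.23 and −0.37) did not pass either. The accession held 88 to 143 reads in each library, and ATF4 protein was not measured.

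STC2, a secreted glycoprotein raised by ATF4, had the smallest p of the members. It read 533, 555 and 483 CPM in shNS ethanol and 318, 271 and 304 CPM in dex, and every dex library was below every ethanol library. The log2 fold change was −0.81 ± 0.10 (SE, edgeR adjusted p = 3.87e-06). In the other lines the means were 510 ± 88.7 and 324 ± 19.6 CPM (shG9a, ethanol and dex), 438 ± 61.1 and 304 ± 19.7 (shGLP), and 498 ± 85.3 and 360 ± 22.5 (shHP1γ; SD, n = 3). STC2 fell in each of the 4 lines, by 0.46 to 0.81 on the log2 scale, and in 12 of 12 pairs.

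SESN2, a leucine sensor that restrains mTORC1, read 179, 163 and 161 CPM in shNS ethanol and 114, 98.7 and 111 CPM in dex. The groups did not overlap in any line, and all 12 pairs were lower with dex. The log2 fold change was −0.64 ± 0.08 in shNS and −0.41 ± 0.08 in shG9a. In shGLP and shHP1γ it was −0.28 and −0.27 and did not pass. Without the shHP1γ libraries of replicate 1 both passed, at −0.28 (edgeR adjusted p = 0.00409) and −0.36 (edgeR adjusted p = 0.00223).

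TRIB3, a pseudokinase induced by ATF4 and CHOP, read 31.3, 29.6 and 30.4 CPM in shNS ethanol and 17.7, 17.03 and 17.1 CPM in dex. It fell to 0.566 of its ethanol level in the fit (log2 fold change −0.82 ± 0.14, edgeR adjusted p = 2.64e-04). It also fell in shG9a (−0.51 ± 0.15), from 20.0 ± 0.947 to 14.03 ± 2.44 CPM. This shG9a call was lost in 5 of 13 alternatives, among them the fit without the shG9a dex library of replicate 2. The shGLP means were 30.0 ± 2.48 and 21.5 ± 1.08 CPM and the shHP1γ means 31.5 ± 4.40 and 25.0 ± 6.03 CPM, and neither change passed. Without the shHP1γ libraries of replicate 1 the shGLP change passed (−0.48, edgeR adjusted p = 0.0025) and the shHP1γ change did not. The other tested TRIB3 transcript changed by 0.16 in the average and did not pass.

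CHAC1, which degrades glutathione, was measured on few reads, 32, 26 and 24 in shNS ethanol and 11, 7 and 16 in dex. The shNS groups did not overlap, and the log2 fold change was −1.29 ± 0.35 (edgeR adjusted p = 0.0181). In the average over the lines it was −0.98 ± 0.18, the largest of the members. DDIT3, which encodes the pro-apoptotic factor CHOP, had 18, 7 and 11 reads in shNS ethanol and 5, 3 and 3 in dex. It exceeded 1 CPM in only 2 libraries, both ethanol, and so passed the filter through the condition in which it was higher; its calls in shNS and in the average are given without weight. DDIT3 (chr12:57910371-57915520, minus strand, GRCh37) overlaps the end of MARS (chr12:57869228-57911352, plus strand), and whether strand was used in counting is not stated.

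**Figure D3:**
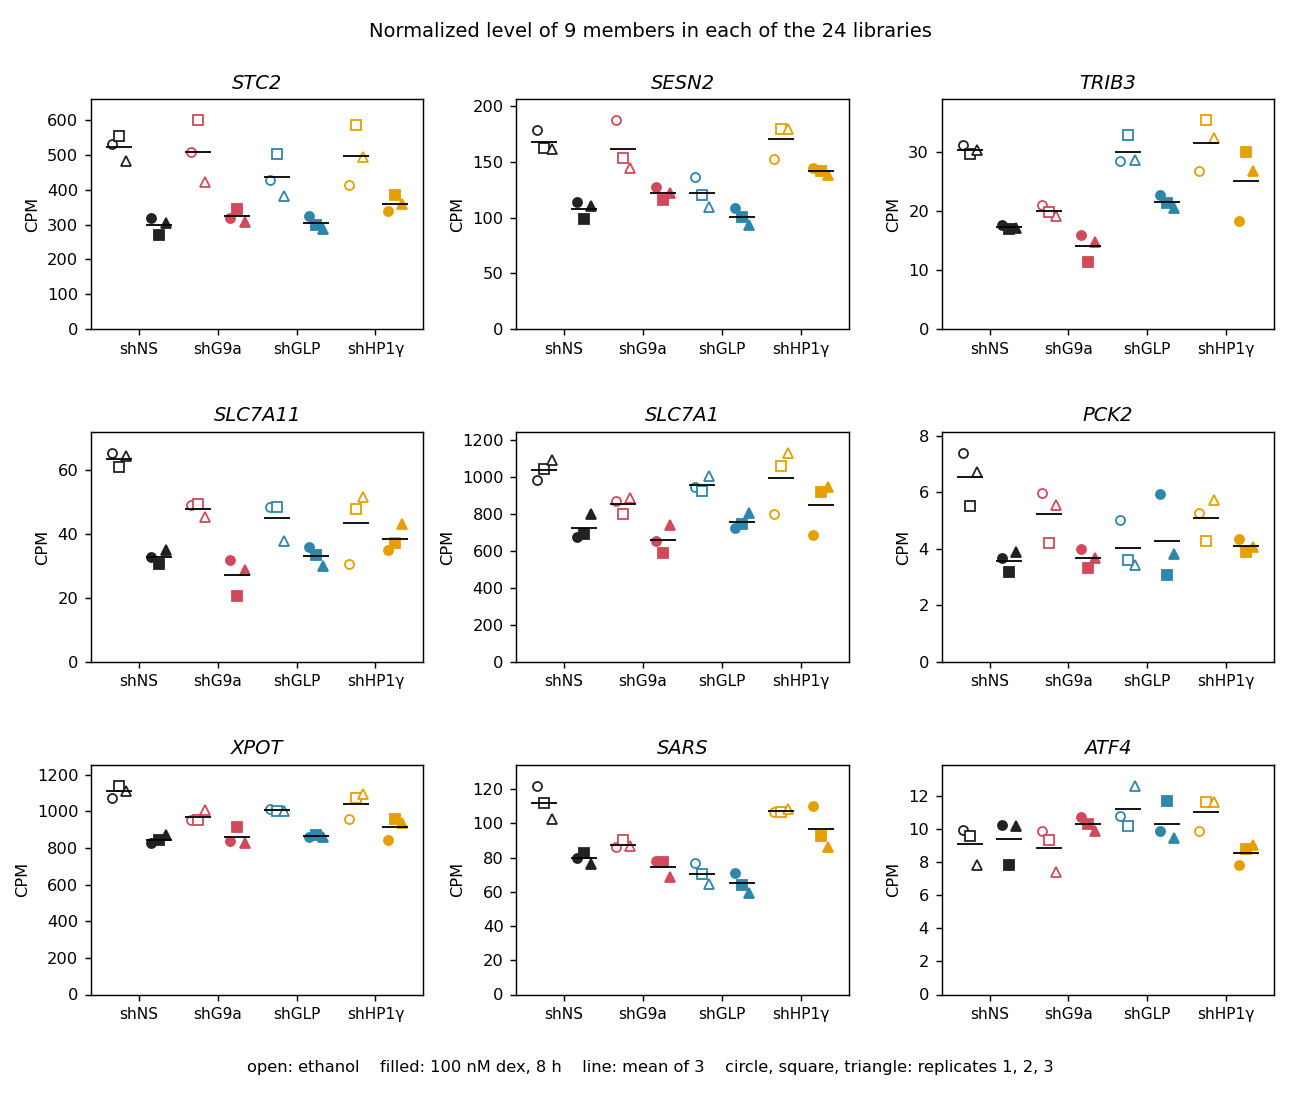
Normalized CPM of 9 members in each of the 24 libraries, by line (open symbols ethanol, filled symbols dex, line the mean of 3). In shNS the ethanol and dex libraries are apart for STC2, SESN2, TRIB3, SLC7A11, SLC7A1, PCK2, XPOT and SARS and overlap for ATF4.

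All 5 amino acid transporters fell in the average over the lines. SLC7A11, the cystine importer, read 65.1, 60.9 and 64.1 CPM in shNS ethanol and 32.8, 30.6 and 35.01 CPM in dex. It fell to 0.517 of its ethanol level in the fit (log2 fold change −0.95 ± 0.15, edgeR adjusted p = 1.13e-04). In shG9a it fell from 47.8 ± 2.28 to 27.01 ± 5.87 CPM (−0.83 ± 0.15). The means were 44.8 ± 6.14 and 32.9 ± 3.00 CPM in shGLP and 43.2 ± 11.1 and 38.3 ± 4.16 CPM in shHP1γ, and neither change passed. Without the shHP1γ libraries of replicate 1 the shGLP change passed (−0.44, edgeR adjusted p = 0.0152) and the shHP1γ change did not.

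SLC7A1, the cationic amino acid carrier, read 983, 1044 and 1090 CPM in shNS ethanol and 677, 694 and 799 CPM in dex. It fell in shNS (−0.53 ± 0.09), shG9a (−0.37 ± 0.09) and shGLP (−0.34 ± 0.09). The shG9a call of SLC7A1 was lost in 5 of 13 alternatives, among them the fit without the shG9a dex library of replicate 2. The SLC7A1 means in shHP1γ were 996 ± 174 and 851 ± 144 CPM, and the shHP1γ libraries of replicate 1 were the lowest of both groups. Without them the shHP1γ change passed (−0.23, edgeR adjusted p = 0.0328). SLC7A5 and SLC3A2, light and heavy chain of the large neutral amino acid exchanger, changed by −0.34 and −0.40 in the average, and the glutamine carrier SLC1A5 by −0.29. SLC3A2 was counted on few reads (1.73 to 8.25 CPM over the libraries). Its fall in shG9a (−0.84 ± 0.25) became −0.41 and did not pass without the shG9a dex library of replicate 2, and in shGLP all 3 pairs were higher with dex (0.10, not passed). The other tested SLC3A2 transcripts changed by −0.52 and −0.21 in the average, and neither passed.

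Of the 5 tested enzymes 4 fell in the average. PCK2, mitochondrial phosphoenolpyruvate carboxykinase, read 7.38, 5.52 and 6.72 CPM in shNS ethanol and 3.68, 3.18 and 3.88 CPM in dex, with no overlap (−0.86 ± 0.16, edgeR adjusted p = 6.53e-04). In shGLP the PCK2 groups overlapped, at 4.02 ± 0.887 and 4.28 ± 1.48 CPM. The other tested PCK2 transcript changed by −0.37 in shNS and −0.21 in the average, and neither passed. The serine pathway enzymes PSAT1, PHGDH and PSPH changed by −0.49, −0.28 and −0.15 in the average, and each passed. The PSPH call was lost in 4 of 12 alternatives, and those of PSAT1 and PHGDH in 1 of 12 each. PHGDH, the first enzyme of the serine pathway, went from 951 ± 22.4 to 717 ± 27.98 CPM in shNS, and it was lower with dex in 12 of 12 pairs. MTHFD2, a mitochondrial folate enzyme, had a mean of 7.46 reads, on a non-coding accession, and did not pass (−0.41).

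Of the 11 tested genes of tRNA charging and export 9 fell in the average, by smaller amounts. XPOT, which carries mature tRNA out of the nucleus, read 1075, 1139 and 1112 CPM in shNS ethanol and 825, 843 and 870 CPM in dex. It fell in each of the 4 lines, by 0.18 to 0.39 on the log2 scale, with no overlap between ethanol and dex in any of them. The XPOT call held in all 13 alternatives in shNS. It was lost in 6 of 13 in shG9a, 4 of 13 in shGLP and 5 of 13 in shHP1γ. MARS, the methionyl-tRNA synthetase, read 610, 630 and 656 CPM in shNS ethanol and 465, 452 and 509 CPM in dex (−0.41 ± 0.06). It also fell in shGLP (−0.25 ± 0.06).

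SARS, the seryl-tRNA synthetase, read 122, 112.05 and 103 CPM in shNS ethanol and 79.7, 82.9 and 76.2 CPM in dex (−0.49 ± 0.07, edgeR adjusted p = 1.61e-05). These reads lie on a non-coding RefSeq transcript of the gene. Its other tested accession, a coding one, changed by −0.23 in shNS, −0.31 in shG9a, 0.20 in shGLP and 0.33 in shHP1γ. In the average it changed by −0.003, and it passed in none of these. In the average NARS changed by −0.20, EPRS by −0.20, YARS by −0.26, IARS by −0.37, RARS by −0.13 and AARS by −0.12, and all 6 passed. The AARS call was lost in 7 and the IARS call in 5 of 12 alternatives. DARS (−0.41, a mean of 13 reads) and KARS (−0.12) did not. AARS went from 871 ± 21.0 to 736 ± 23.6 CPM in shNS with no overlap between the groups, yet did not pass there. Without the shHP1γ libraries of replicate 1 it passed in shNS (−0.24, edgeR adjusted p = 6.17e-04).

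Dex thus lowered members in each role, and the median change in the average was −0.57 for the regulators and effectors (−0.54 without DDIT3), −0.37 for the transporters, −0.40 for the enzymes and −0.24 for tRNA charging and export. The enzyme median includes MTHFD2, which was above 1 CPM in 2 ethanol libraries and only 1 dex library. PSAT1, PCK2, PHGDH and PSPH changed by −0.49, −0.40, −0.28 and −0.15. The order of enzymes and transporters is therefore not read from these medians. The roles were not tested against each other.

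Depletion of G9a or GLP without hormone also went with lower levels of some members. In ethanol, SARS, TRIB3 and XPOT were lower in shG9a than in shNS (3 of 27 members, against 3.73% of all accessions). The median log2 fold change was −0.17 for the members and −0.02 for all accessions. Negative values were 25 of 27, against 54.55% of all accessions. TRIB3 read 21.0, 19.8 and 19.1 CPM in shG9a ethanol, below each of the 3 shNS libraries (−0.61 ± 0.14, edgeR adjusted p = 0.0121). SARS read 86.0, 90.4 and 86.6 CPM there (−0.35 ± 0.07). XPOT read 951, 952 and 1008 CPM (−0.19 ± 0.05), also below each shNS library, and its call was lost in 7 of 13 alternatives. Without the shHP1γ libraries of replicate 1, which enter this comparison through the shared spread and the replicate terms, 10 members were lower (6.51% of all accessions).

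In shGLP ethanol SARS, SESN2, PSPH and PCK2 were lower (4 of 27, against 3.61%). Negative values were 24 of 27 (median −0.18), against 46.81% of all accessions. SARS had the largest called difference by p, at 77.1, 70.2 and 64.8 CPM, all below the 3 shNS libraries (−0.67 ± 0.07, edgeR adjusted p = 9.87e-07). This call held in all 13 alternatives. Its coding accession changed by −0.15 and did not pass. SESN2 read 137, 120 and 109 CPM (−0.46 ± 0.08) and PCK2 5.03, 3.60 and 3.41 CPM (−0.71 ± 0.16), and PSPH changed by −0.44 ± 0.10. The PCK2 call was lost in 5 of 12 alternatives, summed counts among them, and the other tested PCK2 accession changed by 0.22 and did not pass. The 3 shGLP libraries here are among those with raised LYZ, and the part of this in the members' levels was not tested.

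In shHP1γ ethanol SLC7A11 alone was lower (1 of 27, against 2.91%), at 30.7, 47.6 and 51.4 CPM (−0.55 ± 0.15, edgeR adjusted p = 0.0463). The lowest of these values is the library of replicate 1. Without the shHP1γ libraries of replicate 1 the change was −0.30 and did not pass (edgeR adjusted p = 0.199), PSPH was higher (0.30, edgeR adjusted p = 0.00198), and 7 of 27 values were negative in place of 22. With all libraries 46.45% of all accessions were negative.

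The same comparisons in dex gave other counts. No member differed between shG9a and shNS (0 of 27, against 8.8%; 1 had an unadjusted p under 0.05, and DESeq2 also called 0), with a median of −0.01. In shGLP dex SARS alone was lower (1 of 27, against 5.77%), at 71.2, 64.2 and 59.5 CPM (−0.30 ± 0.07). The coding SARS transcript changed by 0.28 there and did not pass. In shHP1γ dex SESN2, SARS, TRIB3 and MARS were higher than in shNS (4 of 27, against 4.09%), and 24 of 27 values were positive (median 0.15, all accessions 0.03). The other 3 were negative, against 44.01% of all accessions. SESN2 read 145, 142 and 138 CPM in shHP1γ dex, above each shNS dex library (0.39 ± 0.08, edgeR adjusted p = 0.00488). TRIB3 read 18.3, 30.0 and 26.8 CPM (0.54 ± 0.14), SARS 110, 92.9 and 86.1 CPM (0.27 ± 0.07) and MARS 502, 586 and 591 CPM (0.23 ± 0.06).

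Without the shHP1γ libraries of replicate 1, 10 members were higher in shHP1γ dex, with a median of 0.27. They were TRIB3 (0.75), SESN2 (0.44), PHGDH (0.36), SLC7A1 (0.35), STC2 (0.33), SLC7A5 (0.31), MARS (0.30), PSPH (0.28), YARS (0.23) and AARS (0.20), against 6.1% of all accessions. SARS (0.20, edgeR adjusted p = 0.0833) no longer passed, and its highest value was from that replicate.

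**Figure D4:**
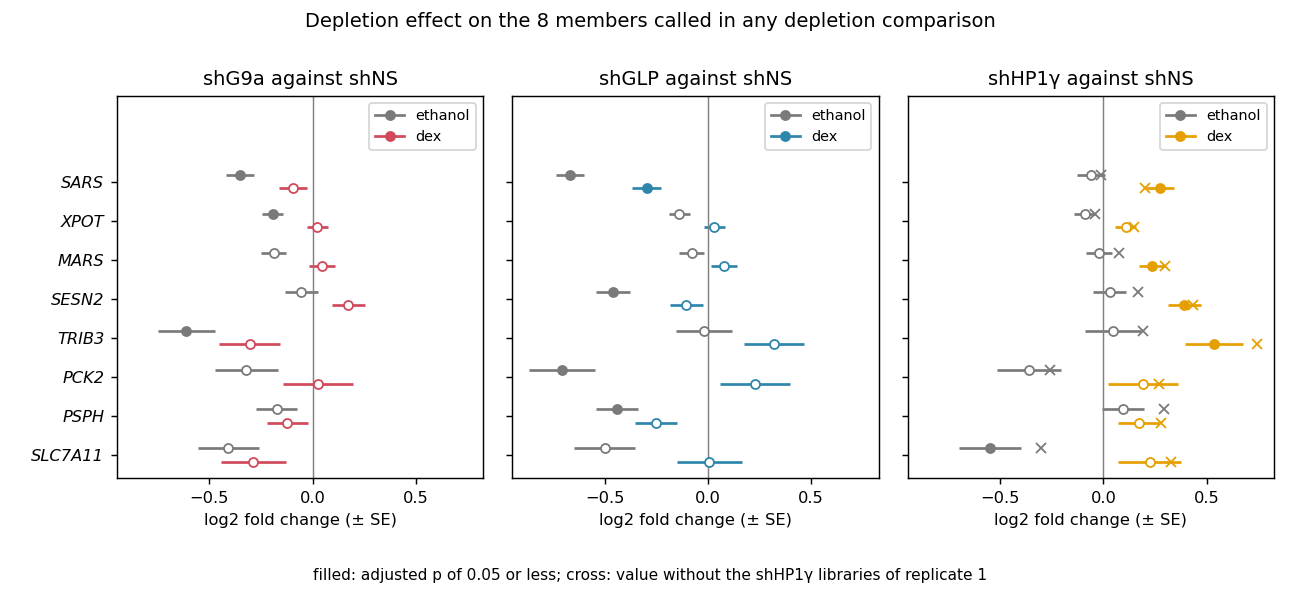
Log2 fold change against shNS, with its standard error, of the 8 members called in any of these comparisons, in ethanol (grey) and dex (colour); crosses give the values without the shHP1γ libraries of replicate 1. In shGLP ethanol PCK2 (−0.71) and SARS (−0.67) lie lowest, and in shHP1γ dex all 8 values are above 0.

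The fall with dex was smaller in the depleted lines by point estimate for most members, but no single difference passed. The interaction of dex with the shRNA was called for 0 of 27 members in shG9a, shGLP and shHP1γ alike, by edgeR and by DESeq2, where 0.0885%, 0.118% and 0.0197% of all accessions were called. At an unadjusted p under 0.05 there were 4, 6 and 10 members. The difference was above 0, which for a member that falls means a smaller fall, for 24, 25 and 24 of the 27 members, with medians of 0.17, 0.17 and 0.22 and all-accession medians of 0.02 each. Over all accessions 45.69%, 44.87% and 45.34% of the differences were below 0. The 3 comparisons share the 6 shNS libraries, so their values are not independent. Smaller dex changes were not particular to the members. FKBP5 rose by 1.75 in shNS and by 1.09, 1.20 and 1.29 in shG9a, shGLP and shHP1γ. PER1 rose by 1.25 and by 0.53, 0.80 and 0.89, and TSC22D3 by 3.48 and by 3.89, 3.23 and 3.46. The interaction medians of 13 tested ER chaperones were 0.28, 0.14 and 0.19. Whether the members differ from a weaker dex response in general was not tested. The smallest adjusted p values were those of PCK2 and SARS with shGLP (differences of 0.93 and 0.37, edgeR adjusted p = 0.284 and 0.362). The other tested PCK2 accession gave −0.08. With only the 4 groups of each comparison in the fit, 4 members passed for shGLP, and 1.1% of all accessions.

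The other genes of the pathway, from lists chosen with earlier results of these data known, were called at shares near that of all accessions (23.8% changed, 13.4% lower) in the dex average for other ATF4 targets and other synthetases. Of 17 tested further ATF4 targets 2 rose and 3 fell in the average over the lines (median 0.01). DDIT4, an inhibitor of mTORC1 that is also a known glucocorticoid target, rose from 417, 409 and 378 CPM to 970, 954 and 998 CPM in shNS (log2 fold change 1.28 ± 0.16) and rose in each line. The glutamine carrier SLC38A1 rose by 0.51 in the average, on a mean of 51.1 reads. EIF4EBP1, a repressor of cap-dependent translation, and the transaminases GPT2 and GOT1 fell by 0.30, 0.32 and 0.17.

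Of 10 tested genes of the eIF2 kinases and eIF2 itself, EIF2AK4 rose and EIF2S1 fell in the average. As a count this is near the shares of all accessions, 23.8% changed and 13.4% lower. EIF2S1, the α subunit of eIF2, fell in each line, by 0.21 to 0.27. EIF2AK4, which encodes GCN2, changed by 0.35 in the average. Its shHP1γ libraries of replicate 1, at 285 and 497 CPM, were above all others, and without them it changed by 0.29 and still passed. It passed in no single line. EIF2S1 was higher in shGLP than in shNS in ethanol (0.21) and in dex (0.24).

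Of 14 tested mitochondrial and other synthetases 1 rose and 3 fell. TARSL2, a second cytosolic threonyl-tRNA synthetase, rose from 36.4, 41.0 and 40.7 CPM to 93.8, 98.7 and 103 CPM in shNS (1.32 ± 0.09, edgeR adjusted p = 1.10e-10). It rose in each of the 4 lines, and these calls held in each alternative run. TARSL2 was lower than in shNS in each depleted line, by 0.52, 0.36 and 0.37 in ethanol and by 0.76, 0.61 and 0.81 in dex (shG9a, shGLP and shHP1γ). The dex calls held in 12 of 12 alternatives and the ethanol calls in 11, 8 and 7 of 12. FARSA, a subunit of the phenylalanyl-tRNA synthetase, and the mitochondrial IARS2 and MARS2 fell by 0.22, 0.14 and 0.10. In dex MARS2 was higher in shG9a than in shNS (0.25). EEF1E1, which sits in the multisynthetase complex, fell by 0.31.

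**Figure D5:**
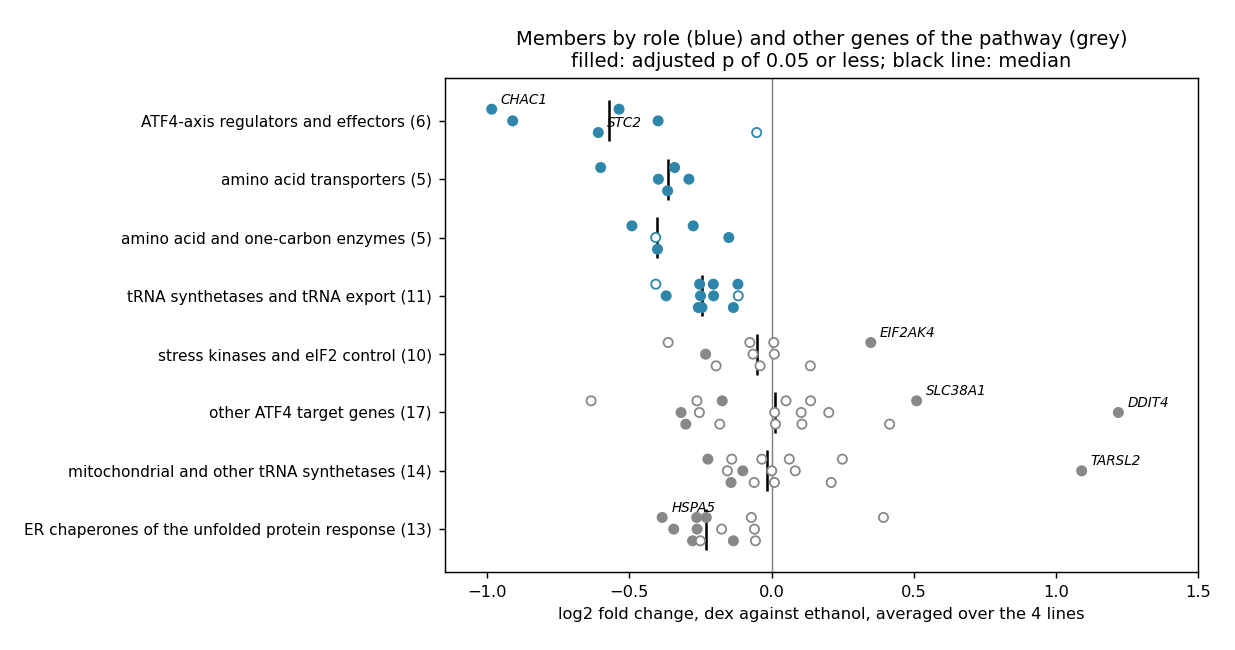
Log2 fold change of dex against ethanol, averaged over the 4 lines, for the tested members by role (blue) and for 4 further gene lists (grey; eIF2 kinases, other ATF4 targets, other synthetases and ER chaperones); filled points passed an adjusted p of 0.05 and black lines are medians. All 27 members lie below 0, whereas the first 3 further lists lie on both sides of it, with DDIT4 (1.22) and TARSL2 (1.09) highest.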

How the data were processed

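RNA-seq libraries were sequenced as 75 bp paired ends. Per the labels and the methods, reads were trimmed, mapped to hg19 with HISAT2 (version not given in the sources used here) and quantified to RefSeq transcripts with GenomicAlignments; the counting mode, strand setting and RefSeq release are not given there. The authors deposited raw counts per accession in a table named for CPM (64519 accessions, 40144 at 0 in every library). A second deposited table holds the authors' own log2 fold changes and their adjusted p-values (FDR) from edgeR for 4 comparisons; neither was used, only the pairing of accessions and symbols was.

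For each member the accession with the highest mean count was taken. Counts were tested with the quasi-likelihood test of edgeR 4.0.16 (R 4.3.3) on accessions over 1 CPM in at least 2 libraries (10167), with upper-quartile factors, all 24 libraries in 1 fit and the replicate number as a block. The block stands in for the removal of unwanted variation named in the methods, whose variant is not given. Per the labels' protocol the 3 replicates of each condition were done on different days; that a number marks the same day in every condition is taken from this and not stated. Deviations of same-numbered libraries correlated at −0.042 to 0.83. The values for shHP1γ ethanol with shHP1γ dex were 0.83, 0.64 and 0.69 (replicates 1, 2 and 3). The block is shared by all lines, so a match of ethanol and dex libraries within 1 line was not modelled in this fit. For dex with only the 2 groups of a line in the fit, the block applies to that line alone. The part of this in the differing counts was not tested. P-values were adjusted by Benjamini-Hochberg, and 0.05 or less was called. Replicates of a group differed beyond counting noise (chi-square per degree of freedom at least 3.27), so each was counted as its own sample. CPM values are normalized counts per accession and not per length, so levels were not compared between genes. Intervals of CPM are SD over 3 replicates. The SE of a log2 fold change is its absolute value divided by the square root of F, from the fit of all 24 libraries. In simulated data for dex in shNS (10167 accessions, 200 changed) 43.1% of 1.5-fold, 65.3% of 2-fold and 88.6% of 4-fold changes were recovered, with 8.22% of calls false.

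Members and gene lists were chosen with earlier results of these data known. Every member is named; values by library or group are given for ATF4, DDIT3, TRIB3, ASNS and CHAC1, for the 6 members with the smallest p in the dex average, and for up to 3 per depletion comparison. From each further list at most 5 called genes per comparison are named. The levels of AARS and PHGDH and the 2 further ER chaperones past that limit were added after their values were seen. The alternatives were TMM factors, DESeq2 1.42.0, 2 other filters, no block, 1 RUVr factor, counts summed per gene, only the groups compared, and libraries left out.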

Additional observations from a re-analysis of the deposited data

Results flagged for a closer look

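ATF4 moved in opposite directions with dex in shG9a and shHP1γ: all 3 same-numbered pairs were higher in shG9a (log2 fold change 0.23) and all 3 were lower in shHP1γ (−0.37). Neither change passed, and the difference between these lines was not tested. The accession held 88 to 143 reads.

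SLC3A2 was higher with dex in all 3 pairs in shGLP (0.10) and lower in all 3 pairs in shNS (−0.53), shG9a (−0.84) and shHP1γ (−0.32). Of these only the shG9a change passed, and it was lost without the shG9a dex library of replicate 2 (−0.41). The interaction of dex with shGLP did not pass, and shGLP was not tested against shG9a or shHP1γ. The accession held 24 to 97 reads. The other tested SLC3A2 transcripts changed by −0.47 and 0.19 in shGLP and by −0.68 and 0.20 in shHP1γ, and none passed.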

How the results depend on the processing

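Number of members called, by setting, where it moved by more than 1.5 times. In the fit with no replicate block the dex count went from 9 to 3 in shG9a, 4 to 1 in shGLP and 2 to 0 in shHP1γ, and against shNS from 3 to 1 (shG9a ethanol), 1 to 0 (shHP1γ ethanol), 1 to 0 (shGLP dex) and 4 to 1 (shHP1γ dex); without the block dex in shNS gave 12 and the average 21. With only the groups compared in each fit, dex gave 2 in shG9a, 13 in shGLP and 13 in shHP1γ, and the shGLP interaction 4 (1.37%, 8.81%, 11.5% and 1.1% of all accessions). The comparisons with shNS gave 9 (shG9a ethanol), 12 (shGLP ethanol), 0 (shHP1γ ethanol), 3 (shGLP dex) and 1 (shHP1γ dex). Of all accessions 9.76%, 8.73%, 1.55%, 12.7% and 2.22% were called there, so 3 of 24 in shGLP dex is near the share. For the other settings in this paragraph the shares are not given, so their counts stand without a background. DESeq2 gave 7 for dex in shGLP, and 1 RUVr factor gave 4 for dex in shHP1γ and 5 for shG9a ethanol. TMM factors gave 1 for dex in shHP1γ, the filter of 5 CPM gave 5 for shG9a ethanol, no filter gave 2 for shHP1γ dex, and counts summed per gene gave 0 for shHP1γ ethanol.

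With libraries left out, over the 3 replicates and the 2 kinds of library that stood apart, dex counts ranged from 9 to 20 in shNS, 1 to 17 in shG9a, 0 to 14 in shGLP, 0 to 10 in shHP1γ and 15 to 23 in the average. Against shNS they ranged from 0 to 10 (shG9a ethanol), 1 to 9 (shGLP ethanol), 0 to 1 (shHP1γ ethanol), 0 to 1 (shG9a dex), 0 to 2 (shGLP dex) and 0 to 10 (shHP1γ dex). The lowest count came without replicate 3 in each of these except dex in shG9a (replicate 2) and shG9a dex, and the highest was reached without the shHP1γ libraries of replicate 1 in each. Without those shHP1γ libraries the shares of all accessions called for dex were 14.2%, 10.3%, 6.87%, 3.5% and 25.5%, in the order above. Against shNS they were 6.51%, 5.73%, 3.46%, 13.6%, 8.59% and 6.1%. The cause of the moves in these counts was not tested. No called value changed sign; of the called values of members under the alternatives 694 kept their call and 142 lost it. Values that were not called did change sign, as in shHP1γ ethanol without replicate 1 of shHP1γ, where the median went from −0.07 to 0.08.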

Other observations

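ER chaperones, which fold secreted proteins and are raised by the unfolded protein response, also fell with dex. Of 13 tested genes 7 fell in the average over the lines and none rose, where 13.4% of all accessions fell (median log2 fold change −0.23, edgeR adjusted p of 0.05 or less): HSPA5 (BiP, −0.38), SDF2L1 (−0.34), CALR (−0.28), HSP90B1 (−0.26), MANF (−0.26), PDIA4 (−0.23) and DNAJB11 (−0.13). All 7 had a mean of 1000 or more reads, and 33.3% of all accessions at that depth fell. DNAJC3 and SEL1L, also at that depth, did not pass. In shNS 6 of the 13 tested genes fell, HSPA5 by 0.61 and SDF2L1 by 0.63, where 5.46% of all accessions fell.

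In dex 7 of the 13 were higher in shGLP than in shNS (5.77% of all accessions called), among them SDF2L1 (0.63), HSPA5 (0.51), MANF (0.49), PDIA4 (0.41) and HSP90B1 (0.40), and 4 were higher in shHP1γ, against 4.09% of all accessions called (MANF 0.36, HSP90B1 0.36, PDIA4 0.32 and CALR 0.28). The shHP1γ calls of MANF, PDIA4, CALR and HSP90B1 held in 6, 7, 8 and 10 of 12 alternatives. In shG9a dex MANF alone was higher (0.30). Without the shG9a dex library of replicate 2 it changed by 0.21 and did not pass (edgeR adjusted p = 0.239). In ethanol HSP90B1 alone was higher in shGLP (0.25), a call that held in 8 of 12 alternatives. The list was chosen with earlier results of these data known.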
